A study of Mus musculus with 48 samples.

Results

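Sex differences in gene expression of skeletal muscle were described on the autosomes of mice that had received no perfluorooctane sulfonate (PFOS, a persistent fluorinated surfactant). The series holds 48 gastrocnemius libraries, 1 per mouse, and the 17 mice at 0 mg/kg/day were used: 9 males (5 hCYP2B6-Tg and 4 Cyp2b-null) and 8 females (4 of each genotype), gavaged for 21 days. Of 54532 genes in the count table, 50225 lie on chromosomes 1 to 19, and 13409 of these had enough counts to be tested. The genes compared were set by chromosome and by the filter on low counts. That filter used the groups of genotype and sex, so a gene could pass on the counts of 1 sex alone. Genes named after their values were seen are marked as such. CYP2B6 is a human cytochrome P450 enzyme of xenobiotic and lipid oxidation, present as a transgene in the hCYP2B6-Tg line. The Cyp2b-null line is named for the lack of mouse Cyp2b genes. Nothing on vehicle, age, background strain or the promoter of the transgene is given in the labels used here. Every contrast between the sexes was made within genotype. Mice at 1 mg/kg/day (8 males and 8 females) and at 10 mg/kg/day (7 males and 8 females) served as separate animals in which the same contrast was read again.

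Male and female skeletal muscle differ in mass, fibre size and fuel use in many mammals. Sex steroids act on muscle through nuclear receptors, among them the estrogen receptor Esr1. Growth hormone, whose secretion has a different rhythm in males and females, signals through Jak2 and the Stat5 proteins and raises Igf1. Polyamines are small cations needed for growth: Odc1 makes putrescine, Amd1 supplies the aminopropyl groups for spermidine and spermine, and Smox oxidises spermine back to spermidine.

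Total counts were 11571142 to 15846615 per library, with a median of 14133168. The sex labels held in every library: Xist had 0 to 3 counts in males and 2017 to 2386 in females, and the Y-linked Ddx3y had 1163 to 1926 counts in males and 0 in females. The extraction text of the labels names liver, while the tissue label is gastrocnemius. The fast myosin Myh4 stood at 52974 to 79831 CPM (counts scaled to a common library total), the skeletal actin Acta1 at 26810 to 40417 CPM, and the liver transcript Alb at 0 to 15.5 CPM with no count in 8 of the 17 libraries. Library numbers in the labels overlapped between the sexes, except that 3 Cyp2b-null male libraries carried higher numbers than any other untreated library.

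Of the 13409 autosomal genes, 1365 (10.2%) differed between the sexes at an adjusted p under 0.05 (edgeR quasi-likelihood test with genotype as a term, two-sided, Benjamini-Hochberg over all 13893 genes tested). Males were higher for 863 (6.44%) and females for 502 (3.74%). The typical difference was small. Its median was 0.39 on the log2 scale among genes higher in males and -0.42 among genes higher in females, and 15.2% and 12.9% of these genes respectively differed by at least 2-fold. The split between the directions depended on scaling: with library totals and no scaling factor 675 genes were higher in males and 672 in females, which moved the share higher in males from 63.2% to 50.1%. All values of the 9 males and 8 females were separate for 215 genes (1.60%). Calls were spread over every autosome, from 8.17% of the genes tested on chromosome 13 to 14.2% on chromosome 18. At the threshold, Nr1h2 (log2 difference -0.16, adjusted p = 0.0496 by edgeR) and Usp54 (0.50, adjusted p = 0.0497) lay just inside, and Abhd5 (0.20, adjusted p = 0.0501) and Adamts5 (0.52, adjusted p = 0.0501) just outside.

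Several of 18 library measures stood apart between the sexes at an unadjusted p under 0.05 (exact permutation within genotype). The mean of the immature muscle genes also passed after adjustment (adjusted p = 0.00612). The shares of ribosomal RNA and pseudogene rows and the means of nerve, satellite cell and endothelial markers did not (adjusted p 0.0582 to 0.1). The ribosomal RNA share and the nerve markers were followed further. Ribosomal RNA rows took 0.0936% ± 0.0437 of counts in males and 0.0416% ± 0.0110 in females (SD, n = 9 and 8; exact permutation within genotype p = 0.00646, adjusted over 18 library measures p = 0.0582). With that share as a covariate, 395 genes were called, 269 higher in males and 126 higher in females. The mean level of 8 nerve and Schwann cell markers had a lower mean in males, at 1.71 ± 0.98 log2 CPM against 3.07 ± 0.98, with ranges of 0.85 to 3.89 and 1.73 to 4.76 (exact permutation p = 0.0221, adjusted p = 0.0816). With that mean as a covariate, 494 genes were called, 326 and 168. Without the 3 high-numbered Cyp2b-null male libraries, 519 were called, 349 and 170, of which 493 were among the 1365. The part of these measures in the sex difference was not tested, and each fit has fewer degrees of freedom or mice than the main one. Both covariates had unlike means in males and females, which widens the error of the sex difference. A lost call was not always a smaller difference. With the ribosomal RNA share, Actc1 stood at -1.55 (main fit -1.46) and Igf1 at 1.02 (1.07). Aplnr then stood at -0.29 (-0.60) and Pnpla3 at -0.48 (-0.80).

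**Figure D1:**
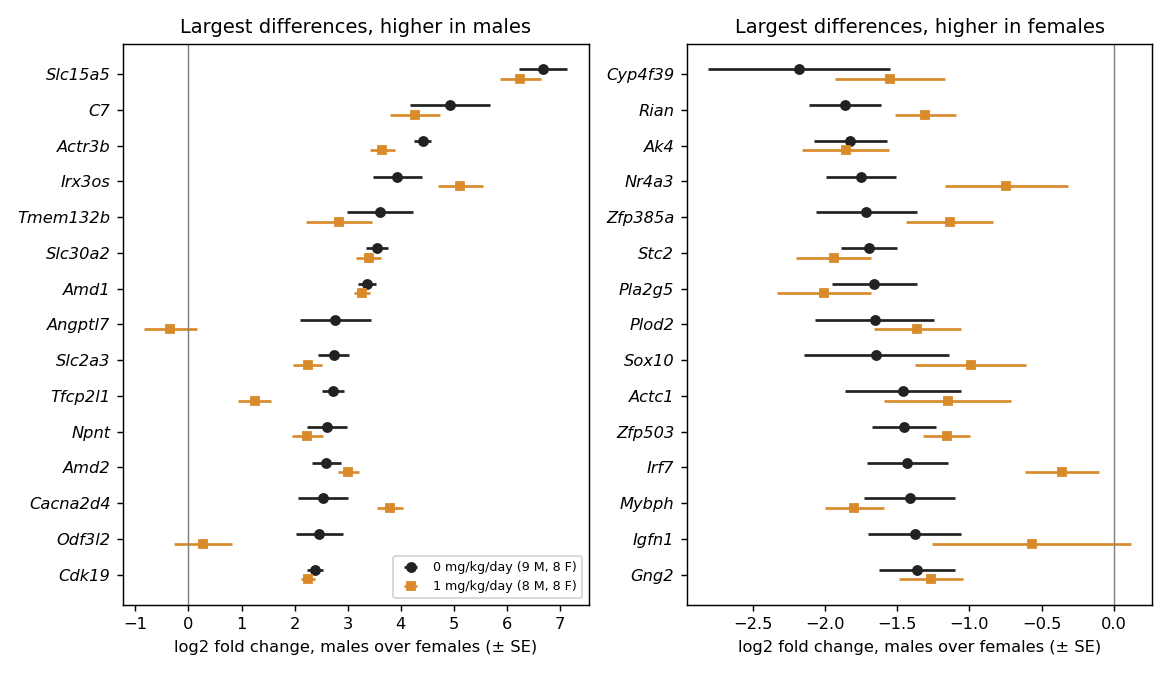
Log2 fold change of males over females with its standard error (x axis) for the 15 largest differences in each direction among named genes, in untreated mice (circles, 9 males and 8 females) and in mice at 1 mg/kg/day (squares, 8 and 8). Angptl7 and Odf3l2 are the genes of the left panel near 0 at 1 mg/kg/day, at -0.34 and 0.28.

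Among genes of polyamine metabolism, Amd1 and Amd2 were among the 15 largest differences toward males. Odc1 and Smox differed less and were not. Amd1 (S-adenosylmethionine decarboxylase, chr10:40287458-40302186 in GRCm38) had 1079, 2207 and 2638 CPM as the lowest, median and highest of 9 males and 163.5, 185.6 and 213.2 CPM in 8 females. The lowest male therefore lay more than 5-fold above the highest female. The log2 difference was 3.36 ± 0.16 (standard error; edgeR adjusted p = 9.23e-11), at 3.40 in hCYP2B6-Tg and 3.32 in Cyp2b-null mice. Odc1 (ornithine decarboxylase, the first step of the pathway, chr12:17544794-17551505) had 106.2, 186.9 and 313.1 CPM in males and 41.1, 57.9 and 75.5 CPM in females. Its difference was 1.69 ± 0.17 (edgeR adjusted p = 2.56e-06), without overlap of the sexes. Smox (spermine oxidase, chr2:131491496-131525922) had 302.4, 575.6 and 875.3 CPM in males against 105.8, 139.8 and 200.8 CPM in females. It differed by 1.94 ± 0.20 (edgeR adjusted p = 4.29e-06), again without overlap.

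Of 14 autosomal polyamine genes tested, 5 were higher in males and 0 in females, beside 6.44% and 3.74% of all genes. The others called were Amd2, a second decarboxylase locus, and the polyamine transporter Atp13a3, which differed by 0.42. Members without a call included the spermidine synthase Srm (-0.26), the antizyme Oaz1 (0.08), the oxidase Paox (0.00) and the antizyme inhibitor Azin1 (0.21). The median over the 14 was 0.12, against -0.01 over all genes. In the separate mice at 1 mg/kg/day the list held 6 calls, all higher in males, beside 8.98% of all genes called in either direction: Amd1 (3.27), Amd2 (3.01), Odc1 (1.83), Smox (1.76), Azin1 (0.65) and Atp13a3 (0.25). Amd1, Amd2, Odc1 and Smox were thus called at both doses, and the antizymes at neither.

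Amd2 (chr10:35708675-35711892) and the pseudogenes Amd-ps3 and Amd-ps4 are near copies of Amd1. Of the 50-base words of their transcripts, 85.7%, 94.8% and 79.1% also occur in Amd1. Amd2 had 22.64, 47.56 and 100.02 CPM in males and 3.6, 7.4 and 13.9 CPM in females, and Amd-ps3 and Amd-ps4 differed by 3.26 and 3.41 on the log2 scale. Reads from those shared stretches cannot be told apart from reads of Amd1, so the differences of these loci, and the Amd2 call in the count of 5 above, are not independent of Amd1. Cdk19, a kinase of the mediator complex, lies 37.4 kb from Amd1 on the opposite strand (chr10:40339564-40483818). It had 41.9, 72.0 and 99.9 CPM in males and 12.4, 14.6 and 15.7 CPM in females, a difference of 2.38 ± 0.15 (edgeR adjusted p = 2.70e-09) with no overlap.

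**Figure D2:**
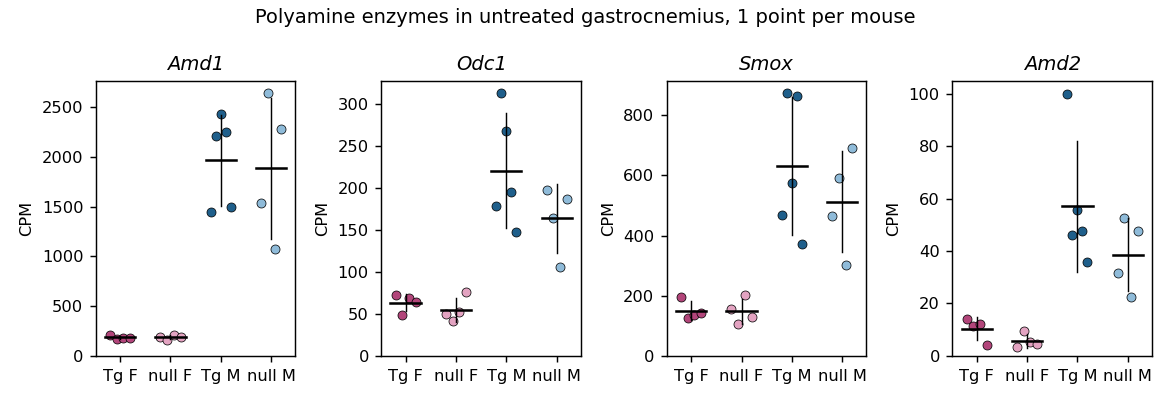
CPM (y axis, from 0) of Amd1, Odc1, Smox and Amd2 in each untreated mouse, grouped as hCYP2B6-Tg (Tg) and Cyp2b-null (null) females (F) and males (M). Horizontal lines are group means and vertical lines 1 SD; all 9 males lie above all 8 females in each panel.

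The promoters of these 4 genes are shown because the genes moved together and because Amd1 and Amd2, near copies in their transcripts, have different upstream sequences. Each line gives the 250 bases before the start site in RefSeq (GRCm38.p6), 5′ to 3′ on the gene's strand, with the GC box (GGGCGG or its reverse complement CCGCCC) in capitals. That start differs from the gene bounds of the count table given above, inside which the Smox window lies wholly and the Odc1 window in part.
Amd1 chr10:40302189-40302438 (minus strand): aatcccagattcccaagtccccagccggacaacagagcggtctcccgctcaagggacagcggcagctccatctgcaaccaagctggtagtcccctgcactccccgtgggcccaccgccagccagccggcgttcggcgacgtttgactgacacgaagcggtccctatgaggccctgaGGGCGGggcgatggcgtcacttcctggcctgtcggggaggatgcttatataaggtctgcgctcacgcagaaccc
Amd2 chr10:35711892-35712141 (minus strand): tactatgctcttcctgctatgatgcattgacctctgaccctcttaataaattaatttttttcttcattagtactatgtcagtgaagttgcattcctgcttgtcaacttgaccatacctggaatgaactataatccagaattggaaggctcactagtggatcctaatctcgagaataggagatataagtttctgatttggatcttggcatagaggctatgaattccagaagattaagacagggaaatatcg
Odc1 chr12:17544623-17544872 (plus strand): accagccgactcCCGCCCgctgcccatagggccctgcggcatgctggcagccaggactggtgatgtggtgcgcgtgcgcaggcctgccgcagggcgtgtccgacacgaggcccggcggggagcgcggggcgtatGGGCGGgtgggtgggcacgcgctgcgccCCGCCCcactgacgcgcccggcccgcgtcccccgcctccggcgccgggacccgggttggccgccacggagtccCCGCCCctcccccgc
Smox chr2:131491612-131491861 (plus strand): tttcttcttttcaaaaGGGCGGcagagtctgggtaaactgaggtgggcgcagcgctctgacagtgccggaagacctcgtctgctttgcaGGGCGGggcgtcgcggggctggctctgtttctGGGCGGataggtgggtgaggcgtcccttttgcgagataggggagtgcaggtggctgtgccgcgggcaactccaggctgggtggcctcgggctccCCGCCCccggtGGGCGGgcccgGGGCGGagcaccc
The Amd1 window holds 1 GC box, Odc1 4, Smox 6 and Amd2 0, and G and C make up 64.4%, 80%, 68% and 37.6% of their bases. A GC box was found in the windows of 63.3% of the tested genes in the promoter table, 70.1% of those higher in males and 59.9% of those higher in females; this motif was chosen after the sequences were seen. None of the 4 windows holds the hormone-related motifs searched on both strands. The hexamer AGAACA, bound by the glucocorticoid receptor and related steroid receptors, was found in a window of 12.7% of tested genes, 12% of those higher in males and 12.5% of those higher in females. The STAT motif TTCNNNGAA was found for 7.11%, 5.46% and 7.03% of these genes. The full inverted repeat of that hexamer (AGAACA and TGTTCT, 3 bases apart) and the estrogen element (GGTCA and TGACC, 3 bases apart) were in 0 windows of called genes. Over all 9744 tested genes in the promoter table they were found for 1 and 0, so their absence from called genes says nothing about those genes. A motif match in a window this short is a description only.

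Among the other large differences in favour of males, several transcripts were close to absent in females. Slc15a5 and C7, like Irx3os and Tmem132b below, passed the filter on low counts through the males alone. Slc15a5, a member of the oligopeptide transporter family (chr6:137983586-138079916), had 4.0, 5.6 and 10.9 CPM in males, and 5 of 8 females had no count. Summed over mice, 847 counts in males and 7 in females gave a ratio of 114 (95% counting interval 55 to 284, counting error only). The complement component C7 (chr15:4988762-5063740) had 0.49, 3.32 and 24.7 CPM in males against 0.07, 0.20 and 0.37 CPM in females, a difference of 4.93 ± 0.75 (edgeR adjusted p = 0.000325). The sexes did not overlap for either gene, but C7 spanned a wide range among males, highest in hCYP2B6-Tg male 5 and Cyp2b-null male 1 (12.3 CPM).

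Actr3b, an isoform of the actin-related protein of the Arp2/3 complex (chr5:25759997-25850688), had the smallest adjusted p of the autosomal genes. Its levels were 13.1, 21.9 and 27.7 CPM in males and 0.78, 0.89 and 1.23 CPM in females, a difference of 4.41 ± 0.16 (edgeR adjusted p = 1.01e-12). The zinc transporter Slc30a2 (chr4:134343181-134354484) had 11.1, 19.7 and 25.2 CPM in males against 0.76, 1.53 and 2.68 CPM in females, a difference of 3.55 ± 0.20 (edgeR adjusted p = 9.47e-10). The glucose transporter Slc2a3 differed by 2.74 ± 0.29, with 7.5 to 26.5 CPM in males and 1.1 to 4.4 CPM in females. The transcription factor Tfcp2l1 differed by 2.73 ± 0.21, with 18.2 to 40.5 CPM in males and 2.5 to 6.2 CPM in females. In each of these 4 genes every male exceeded every female, and each was also called at 1 mg/kg/day, at 3.65, 3.39, 2.25 and 1.24.

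The rest of the 15 largest differences toward males were less uniform. Nephronectin (Npnt), an integrin ligand of the matrix, differed by 2.61 ± 0.37 without overlap. The transmembrane protein Tmem132b (3.61 ± 0.62) overlapped in 1 male, and the calcium channel subunit Cacna2d4 (2.53 ± 0.48) reached 7.37 CPM in 1 Cyp2b-null female, within the male range of 5.5 to 18.2 CPM. Irx3os, an antisense transcript that overlaps Irx3, had 2.3 to 7.2 CPM in males and 0 to 0.72 CPM in females (3.93 ± 0.46). Irx3 itself was not called (0.41, edgeR adjusted p = 0.406); use of strand in counting is not given in the labels, so reads of the overlap cannot be told apart. Odf3l2 (2.46 ± 0.44) lies 1.61 kb from Shc2 on the same strand, which also differed (2.03 ± 0.28). Angptl7, a secreted angiopoietin-like protein, differed by 2.77 ± 0.66 (edgeR adjusted p = 0.0108), but 6 of 9 males exceeded all females and the value at 1 mg/kg/day was -0.34 (edgeR adjusted p = 0.737). Its call was lost with limma voom (adjusted p = 0.0615).

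Further genes higher in males were chosen after their values were seen. Serpinb6a, a protease inhibitor, had 198.1, 316.9 and 409.6 CPM in males and 92.4, 106.7 and 142.4 CPM in females, a difference of 1.51 ± 0.12 (edgeR adjusted p = 1.34e-07). The carbonyl reductase Cbr2 differed by 1.92 ± 0.17, the ubiquitin ligase Mib1 by 1.44 ± 0.14 and the scavenger receptor Stab2 by 1.48 ± 0.13, each without overlap. The muscle lysine methyltransferase Mettl21c had 59.9 to 136.6 CPM in males and 26.6 to 59.9 CPM in females (1.18 ± 0.19). The receptor kinase of the neuromuscular junction Musk differed by 1.53 ± 0.22 and the nicotinamide riboside kinase Nmrk2 by 1.45 ± 0.25, with 8 of 9 males above all females in both. All 7 were called at 1 mg/kg/day in the same direction, between 0.92 and 2.02.

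**Figure D3:**
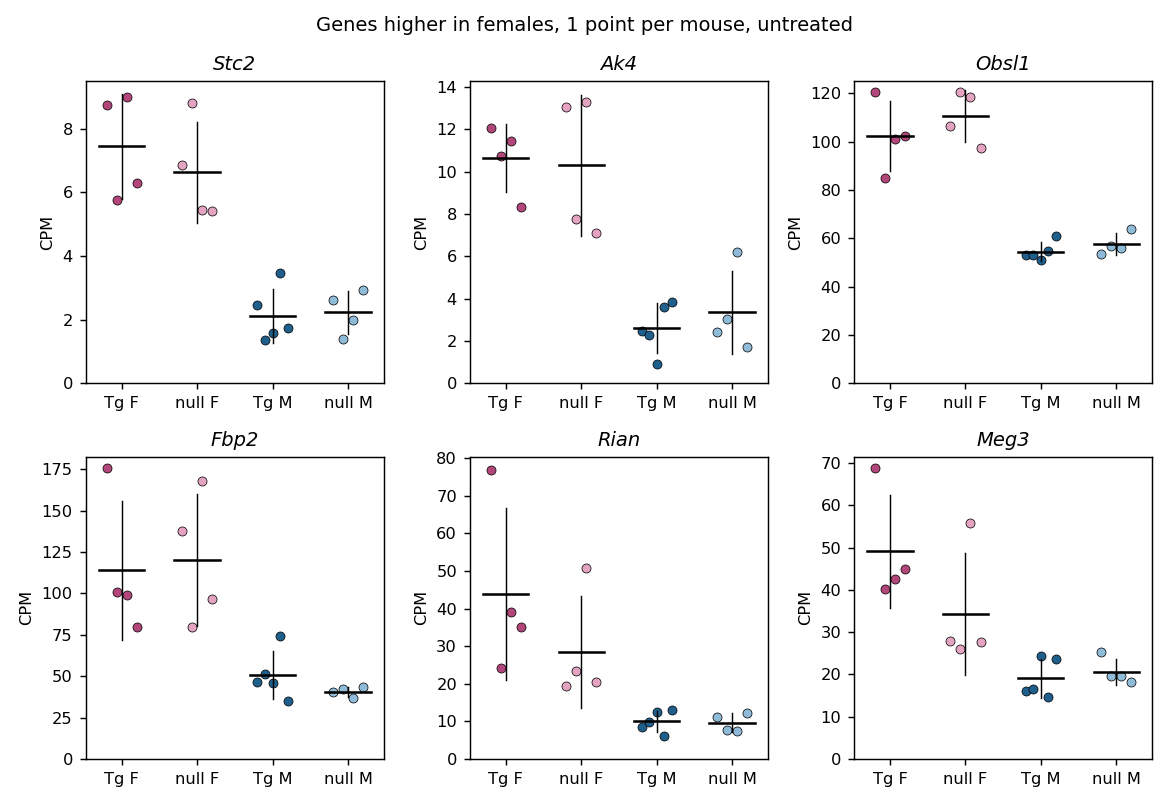
CPM (y axis, from 0) of 6 genes higher in females in each untreated mouse, grouped as hCYP2B6-Tg (Tg) and Cyp2b-null (null) females (F) and males (M), with group means and 1 SD. In all 6 panels the 8 females lie above the 9 males.

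The largest differences toward females were smaller than those toward males. The glycoprotein hormone Stc2 (stanniocalcin 2, chr11:31357307-31370074) had 5.4, 6.6 and 9.0 CPM in females and 1.3, 2.0 and 3.5 CPM in males, a difference of -1.70 ± 0.19 (edgeR adjusted p = 1.63e-05). The mitochondrial adenylate kinase Ak4 (chr4:101419277-101466995) had 7.1, 11.1 and 13.3 CPM in females against 0.88, 2.46 and 6.20 CPM in males (-1.82 ± 0.25, edgeR adjusted p = 0.000132). Females and males did not overlap for either. The orphan nuclear receptor Nr4a3 (chr4:48045153-48086447) differed by -1.75 ± 0.24 and the zinc finger protein Zfp503 (chr14:21983959-21989601) by -1.45 ± 0.22, also without overlap. Obsl1, a cytoskeletal adaptor of the sarcomere (chr1:75479310-75506452), had 85.1, 104.4 and 120.7 CPM in females and 50.8, 54.8 and 64.0 CPM in males. Its difference of -0.93 ± 0.07 was without overlap of the sexes (edgeR adjusted p = 4.30e-08). Stc2, Ak4, Zfp503 and Obsl1 were called at 1 mg/kg/day too, at -1.94, -1.86, -1.16 and -0.58, while Nr4a3 stood at -0.74 (edgeR adjusted p = 0.311).

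Rian, an imprinted noncoding transcript of chromosome 12, was among the largest differences toward females, and others of its domain were read after their values were seen. Rian (chr12:109603940-109661716) had 19.4, 29.7 and 76.9 CPM in females and 6.2, 9.8 and 13.1 CPM in males (-1.86 ± 0.25, edgeR adjusted p = 9.26e-05). Meg3, 32.2 kb away on the same strand (chr12:109541001-109571726), had 26.0, 41.4 and 68.8 CPM against 14.7, 19.6 and 25.2 CPM (-1.07 ± 0.18, edgeR adjusted p = 0.000742). Neither overlapped between the sexes. Mirg differed by -1.57 ± 0.38, with 4 of 8 females above every male, and its call was lost with the ribosomal RNA or nerve covariate (adjusted p 0.358 and 0.0513) and without the 3 high-numbered libraries (0.0999). There was no call for the protein-coding Dlk1 of the same domain (-0.26, edgeR adjusted p = 0.767). On chromosome 7 the imprinted pair Igf2 and H19 differed by -1.60 ± 0.27 and -0.90 ± 0.21. Igf2 was low throughout, at 0.91 to 1.81 CPM in females and 0.22 to 1.06 CPM in males. Meg3, Mirg and Dlk1 were chosen after their values were seen. At 1 mg/kg/day Rian (-1.31), Meg3 (-0.72) and H19 (-1.07) were called, Mirg (-1.04) and Igf2 (-0.93) were not.

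Several of the other large differences toward females overlapped between the sexes and lost their call with a covariate. Among those given here, only Cyp4f39 lost its call when 1 mouse was left out. The cytochrome P450 gene Cyp4f39 had 1.2, 3.1 and 33.0 CPM in females and 0.56, 1.15 and 2.45 CPM in males (-2.18 ± 0.63, edgeR adjusted p = 0.0322). Its call was lost without hCYP2B6-Tg female 4, hCYP2B6-Tg male 2 or any 1 of the 4 Cyp2b-null males (adjusted p up to 0.0756), and without Cyp2b-null female 2, the mouse at 33.0 CPM, the difference was -1.15. The collagen lysyl hydroxylase Plod2 (-1.66 ± 0.41) was above all males in 3 of 8 females and lost its call with the ribosomal RNA share or the nerve markers as a covariate. The secreted phospholipase Pla2g5 (-1.66 ± 0.30), the zinc finger protein Zfp385a (-1.71 ± 0.35), the G protein subunit Gng2 (-1.36 ± 0.26) and the interferon regulatory factor Irf7 (-1.43 ± 0.28) had 6 or 7 of 8 females above every male. With the nerve markers as a covariate the calls of Zfp385a, Gng2 and Irf7 were lost (adjusted p 0.115, 0.051 and 0.069), and with the ribosomal RNA share those of Pla2g5 and Irf7 (0.0612 and 0.0652). The sarcomere-associated proteins Mybph (-1.41 ± 0.32) and Igfn1 (-1.38 ± 0.32) had 6 and 4 of 8 females above every male. The Mybph call was lost with either covariate (adjusted p 0.121 and 0.0807), and so was that of Igfn1 (0.0677 and 0.119).

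**Figure D4:**
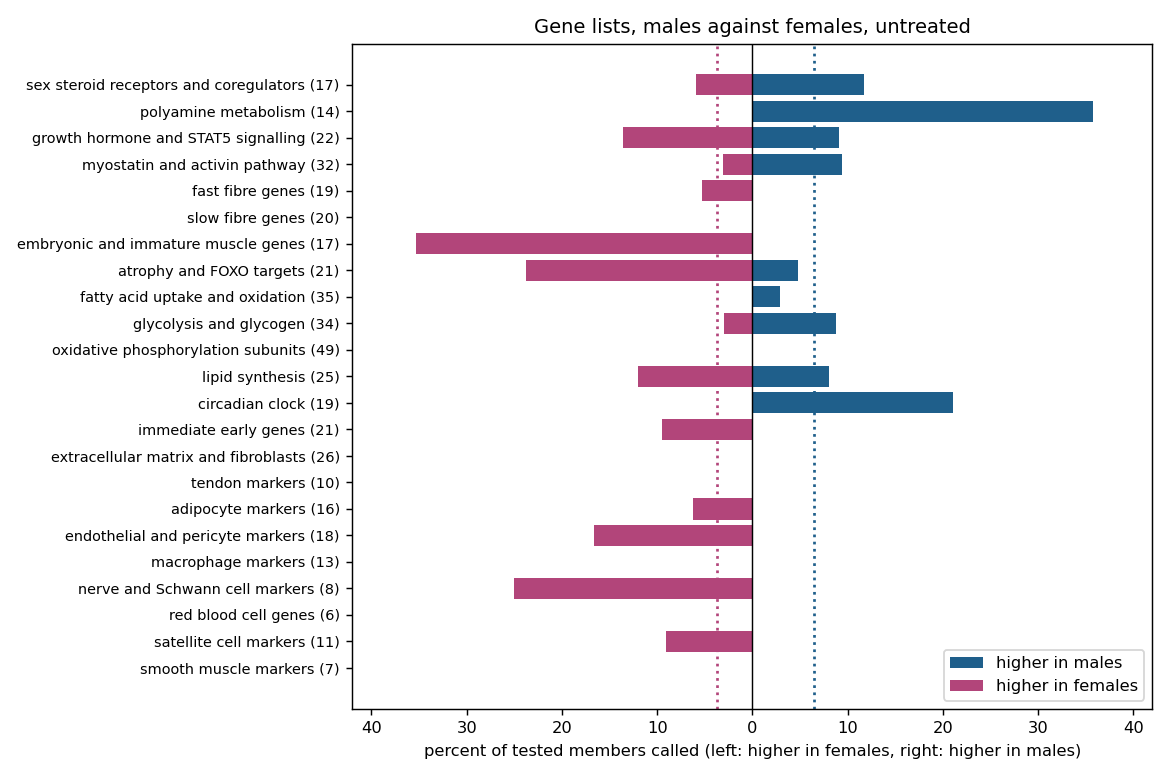
Percent of the tested autosomal members of each gene list that were called (x axis), higher in females to the left and higher in males to the right, with the number tested in brackets. Dotted lines mark the shares over all 13409 genes, 3.74% and 6.44%; polyamine metabolism reaches farthest right and immature muscle genes farthest left.

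Few contractile and oxidative genes of the muscle were called, beside 10.2% of all genes. An unadjusted p under 0.05 by edgeR was reached by 3279 of all 13409 genes. None of 20 slow-fibre genes was called by edgeR (1 at an unadjusted p under 0.05, 0 by DESeq2). Of 19 fast-fibre genes 1 was, the sarcoplasmic calcium pump Atp2a1 (-0.30 ± 0.07, edgeR adjusted p = 0.00771). The Atp2a1 call was lost with the ribosomal RNA share or the nerve markers as a covariate (edgeR adjusted p 0.289 and 0.118). It was also lost without the 3 high-numbered libraries (0.101), while at 1 mg/kg/day the gene was called (-0.48). The myosins were Myh4 at 0.11 (adjusted p = 0.504), Myh1 at -0.73 (0.174), Myh2 at -0.15 (0.893) and Myh7 at -0.16 (0.961), all by edgeR. Slow myosin Myh7 ran from 0 to 1887 CPM in males and from 0.85 to 754.2 CPM in females, so that the female range lay within the male one. No subunit of oxidative phosphorylation was called by edgeR among 49 (median -0.03, with 2 at an unadjusted p under 0.05, and Ndufs4 called by DESeq2). At 1 mg/kg/day 4 of them were called, all higher in males, beside 8.98% of all genes called in either direction. Among 35 genes of fatty acid uptake and oxidation 1 was called, the acyl-CoA synthetase Acsl3, with 14.9, 19.005 and 44.3 CPM in males and 6.5, 10.3 and 13.9 CPM in females (1.17 ± 0.18, edgeR adjusted p = 0.000299). Cd36 (-0.02), Lpl (0.13), Pdk4 (0.01) and Ucp3 (-0.10), genes of fat import and fuel choice, had adjusted p-values of 0.836 to 0.994 by edgeR.

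Of 34 carbohydrate genes 4 were called, a share near the 10.2% of all genes. Glycogen genes higher in males included the phosphorylase kinase subunit Phkb (0.45) and the glycogen-targeting phosphatase subunit Ppp1r3a (0.28), whose call was lost with the ribosomal RNA or nerve covariate (adjusted p 0.233 and 0.201). The muscle fructose bisphosphatase Fbp2 (chr13:62836877-62858422) was higher in females, with 79.61, 100.05 and 175.5 CPM against 35.1, 43.2 and 74.1 CPM in males (-1.36 ± 0.18, edgeR adjusted p = 8.01e-05). Fbp2 did not overlap between the sexes and was called at 1 mg/kg/day (-1.24), where Phkb (0.21) and Ppp1r3a (0.12) were not. Pyruvate carboxylase (Pcx), which is not on the list and was chosen after its values were seen, was also higher in females (-1.10 ± 0.15), as was carbonic anhydrase 3 (Car3) of the adipocyte list, at 3120, 4053 and 4600 CPM against 1561, 1967 and 3145 CPM. Muscle fibres express Car3 as well, and no other of 16 adipocyte markers was called. Of 25 lipid synthesis genes, Srebf1 (0.80) and Me1 (0.34) were higher in males and Mlxipl (-0.51), Srebf2 (-0.36) and Pnpla3 (-0.80) in females. Over all genes, 6.44% were higher in males and 3.74% in females. At 1 mg/kg/day Srebf1 was called (0.81), and Me1 (0.21), Mlxipl (-0.15), Srebf2 (-0.14) and Pnpla3 (-0.31) were not. The calls of Me1 and Pnpla3 were lost with the ribosomal RNA share (edgeR adjusted p 0.108 and 0.318) or the nerve markers (0.171 and 0.127) as a covariate. Pnpla3 also lost its call without the 3 high-numbered libraries (0.212) and with all 48 mice in one fit (0.339). Fasn (-0.44, edgeR adjusted p = 0.653) and Scd1 (0.32, 0.819) varied widely within each sex, together with Adipoq (-0.22, 0.887).

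Of 17 genes of immature muscle, 6 were called, all higher in females, beside 3.74% of all genes: Actc1, Myl4, Myog, Peg3, Igf2 and H19. The list mean was 2.95 ± 0.20 log2 CPM in males and 3.41 ± 0.19 in females. Embryonic myosin Myh3 (-0.47) and perinatal myosin Myh8 (-0.01) were among the 11 not called, as were Myf6 (0.21), Tnnt2 (0.17) and Mest (0.13), with values toward males. The cardiac actin Actc1 (chr2:114047282-114053548) had 196.5, 1072 and 1986 CPM in females and 184.4, 305.1 and 1107 CPM in males (-1.46 ± 0.40, edgeR adjusted p = 0.0251), with 4 of 8 females above every male. Its call was lost without hCYP2B6-Tg female 1, Cyp2b-null female 1 or Cyp2b-null male 4 (adjusted p up to 0.0607) and at 1 mg/kg/day it stood at -1.15 (edgeR adjusted p = 0.111). The light chain Myl4 (-1.31 ± 0.35) lost its call without hCYP2B6-Tg female 1 or Cyp2b-null female 3 (adjusted p up to 0.0582). The regulatory factor Myog had 3.4, 8.8 and 12.8 CPM in females and 2.3, 3.8 and 5.8 CPM in males (-1.08 ± 0.25). With the ribosomal RNA share as a covariate the edgeR calls of Actc1, Myl4 and Myog were lost (adjusted p 0.176, 0.239 and 0.0903). Their differences were then -1.55, -1.25 and -1.26. With the nerve markers the calls of Actc1 and Myl4 were lost (0.275 and 0.0822), at -1.14 and -1.42. Only H19 of the 17 was called at 1 mg/kg/day.

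Among 21 genes linked to atrophy and FOXO factors, 5 were higher in females and 1 in males, beside 3.74% and 6.44% of all genes. The cell cycle inhibitor Cdkn1a had 17.5, 30.1 and 50.1 CPM in females and 8.4, 11.1 and 24.7 CPM in males (-1.31 ± 0.21, edgeR adjusted p = 0.000595). The stress proteins Gadd45a (-0.93 ± 0.19) and Sesn1 (-0.80 ± 0.13), the F-box protein Fbxo31 (-0.37 ± 0.05) and the autophagy protein Map1lc3b (-0.21 ± 0.06) moved the same way, and the mitophagy receptor Bnip3 (0.35 ± 0.10) the other. The ubiquitin ligases for which the list is known, Fbxo32 (0.39, edgeR adjusted p = 0.0713) and Trim63 (0.07, 0.772), were not called by edgeR; Fbxo32 was with DESeq2 (adjusted p = 0.0305), with limma voom (0.0175) and without the filter on low counts (0.0493). At 1 mg/kg/day 11 were higher in females and 1 in males, beside 8.98% of all genes called in either direction, among them Cdkn1a (-1.35), Gadd45a (-1.03), Sesn1 (-1.21), Fbxo31 (-0.54) and Map1lc3b (-0.28).

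Hormone and growth factor pathways gave scattered calls. Of 22 growth hormone and STAT5 genes, Igf1 and Jak2 were higher in males and Igf2, Stat5a and Grb10 in females, beside 6.44% and 3.74% of all genes. Igf1 had 8.0, 13.8 and 54.3 CPM in males and 4.2, 8.6 and 11.4 CPM in females (1.07 ± 0.31, edgeR adjusted p = 0.0336). That call was lost on leaving out any 1 of 9 mice (hCYP2B6-Tg females 1 to 4 and male 3, Cyp2b-null females 2 and 3 and males 1 and 2; adjusted p up to 0.0663), while at 1 mg/kg/day the difference was 1.49 (edgeR adjusted p = 0.000355). Jak2 differed by 0.52 ± 0.10, Grb10, an inhibitor of insulin and IGF receptors, by -0.59 ± 0.12 and Stat5a by -0.44 ± 0.09; Stat5a overlaps Stat3 (-0.59) on the opposite strand. The calls of Igf1, Grb10 and Stat5a were lost with the ribosomal RNA share as a covariate (adjusted p 0.215, 0.0661 and 0.128) and with the nerve markers (0.0862, 0.0583 and 0.0775), and that of Jak2 with the nerve markers (0.0546). The receptor Ghr (0.11, edgeR adjusted p = 0.271) and the feedback genes Socs2 (-0.89, 0.228), Cish (0.35, 0.773) and Bcl6 (0.20, 0.491) were not called, nor were the insulin receptor substrates Irs1 (-0.05, 0.919) and Irs2 (0.21, 0.121).

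Of 17 autosomal sex steroid receptors and coregulators, 2 were higher in males and 1 in females, beside 6.44% and 3.74% of all genes. The coactivator Ncoa1 (0.42 ± 0.09) and corepressor Ncor1 (0.25 ± 0.07) were higher in males. Hsd17b4, a peroxisomal enzyme of the steroid dehydrogenase family, was higher in females (-0.37 ± 0.09). The estrogen receptor Esr1 had 27.7, 39.3 and 54.9 CPM in females and 25.4, 36.5 and 37.9 CPM in males (-0.22 ± 0.10, edgeR adjusted p = 0.178), and -0.46 at 1 mg/kg/day (adjusted p = 0.00647). Of 32 myostatin and activin pathway genes, 3 were higher in males and 1 in females, again beside 6.44% and 3.74% of all genes. The bone morphogenetic protein receptors Bmpr1a (0.22) and Bmpr2 (0.25) and the mediator Smad4 (0.21) were higher in males. The ligand Tgfb3 (-0.38) was higher in females. The receptors Acvr1b, Acvr2a, Acvr2b and Tgfbr1 were not called by edgeR. The calls of Ncor1, Bmpr1a and Bmpr2 were lost without hCYP2B6-Tg female 4 (adjusted p up to 0.0563). With the ribosomal RNA share, with the nerve markers and without the 3 high-numbered libraries, the calls of Ncor1, Bmpr1a, Bmpr2, Smad4 and Hsd17b4 were lost (up to 0.36), and that of Smad4 also with unscaled totals, without the filter and with all 48 mice in one fit (0.0773, 0.0601 and 0.136). DESeq2 also called Ncoa2, Tgfbr1, Smad5 and Id3. Myostatin (Mstn, 0.11, edgeR adjusted p = 0.695) and its inhibitor Fst (0.25, 0.692) were not called.

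Some markers of other cells in the tissue were called. All 8 nerve and Schwann cell markers had lower values in males, from -0.83 to -1.81, and 2 were called: Sox10 (-1.65 ± 0.50, edgeR adjusted p = 0.0423) and Ncmap (-1.67 ± 0.52, 0.047). In that direction 3.74% of all genes were called. The Sox10 call was lost on leaving out any 1 mouse other than hCYP2B6-Tg male 5, Cyp2b-null females 2 and 3 or Cyp2b-null males 1 and 4 (adjusted p up to 0.104). The Ncmap call was lost without any 1 mouse other than Cyp2b-null females 2, 3 and 4 or Cyp2b-null male 1 (up to 0.172), and at 1 mg/kg/day neither was called. In bulk tissue, fewer cells of a type and less RNA per cell cannot be told apart. Of 18 endothelial and pericyte markers 3 were higher in females (Aplnr -0.60, Esam -0.46 and Sox17 -0.45). Of 11 satellite cell markers 1 was (Cdh15 -0.32), beside 3.74% of all genes. The Cdh15 call was lost with the ribosomal RNA share as a covariate (edgeR adjusted p = 0.0677). All 10 tendon markers had higher values in males, with a median of 1.19, yet none was called by edgeR or DESeq2 (4 at an unadjusted p under 0.05); their mean ran from -0.68 to 4.02 log2 CPM in males and from -0.14 to 1.87 in females, and their median was -0.48 at 1 mg/kg/day. None of 26 matrix and fibroblast, 13 macrophage, 6 red blood cell or 7 smooth muscle genes was called by edgeR. At an unadjusted p under 0.05 there were 5, 0, 0 and 1, beside 3279 of all 13409 genes. DESeq2 called Col4a1, Col4a2, Lum and the smooth muscle gene Smtn. Among lists read for timing and handling, 4 of 19 clock genes were higher in males (Bhlhe41 0.70, Per2 0.75, Hlf 0.57 and Rora 0.38) and 2 of 21 immediate early genes in females (Nr4a3 -1.75 and Nr4a2 -1.04), beside 6.44% and 3.74% of all genes in those directions. With either covariate the calls of Aplnr, Esam, Sox17, all 4 clock genes and Nr4a2 were lost (adjusted p 0.0626 to 0.485). The Per2 call was lost without hCYP2B6-Tg female 1 or 2 or male 3, or Cyp2b-null female 1, 3 or 4 or male 2 or 4 (adjusted p up to 0.0713). The Hlf call was lost without hCYP2B6-Tg female 1 or 3 or male 3, or Cyp2b-null female 1, 2 or 4 or male 2 or 4 (up to 0.0698). The Rora call was lost without hCYP2B6-Tg female 2, 3 or 4 or male 1, 2 or 3, or Cyp2b-null female 2 or 4 or male 2 or 4 (up to 0.0821), and that of Nr4a2 without hCYP2B6-Tg female 3.

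**Figure D5:**
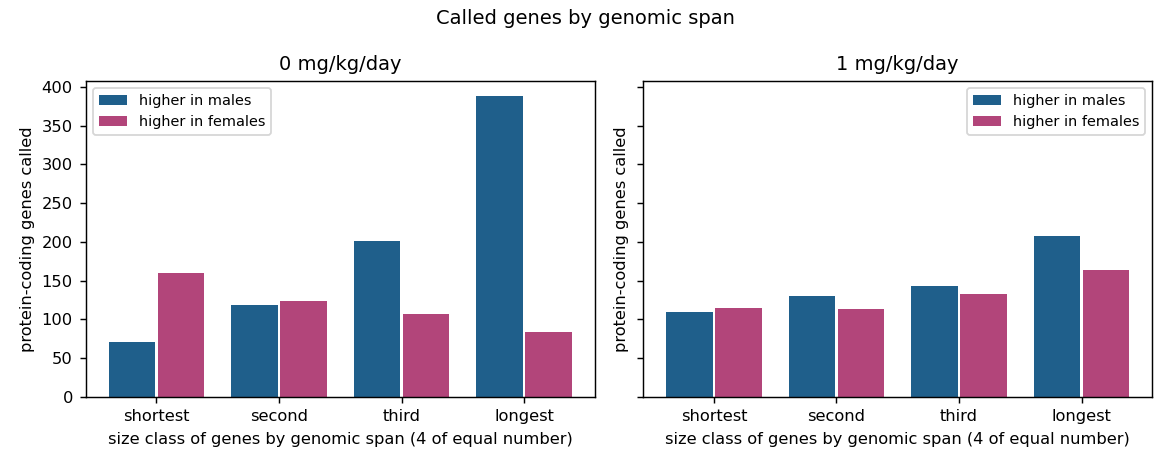
Number of protein-coding autosomal genes called (y axis) by size class of genomic span (x axis, 4 classes of equal number), higher in males and higher in females, at 0 and at 1 mg/kg/day. In untreated mice 71 genes of the shortest and 388 of the longest class are higher in males; at 1 mg/kg/day the longest class holds 208.

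Called genes differed in size according to direction. The genomic span of protein-coding genes had a median of 58.8 kb among those higher in males, 17.3 kb among those higher in females and 25 kb among all tested. With genes put in 4 size classes of equal number, in the longest (59 kb and over) 388 genes were higher in males and 84 in females, and in the shortest (up to 10.8 kb) 71 and 160. The median log2 difference went from -0.07 in the shortest to 0.05 in the longest class. With the same mice split by genotype it went from -0.05 to 0.02 in hCYP2B6-Tg and -0.09 to 0.09 in Cyp2b-null mice. In the separate mice at 1 mg/kg/day the shift was absent, at -0.002 in the shortest and 0.005 in the longest class. At 10 mg/kg/day these medians were -0.07 and -0.03. The median spans of called genes at 1 mg/kg/day were 34.4 kb and 30.9 kb, with 208 and 164 calls in the longest class. The nuclear noncoding RNA Malat1 (chr19:5795690-5802672), chosen after its values were seen, was also higher in males, at 236.6, 497.1 and 788.3 CPM against 122.5, 178.5 and 196.9 CPM (1.60 ± 0.20, edgeR adjusted p = 5.78e-05). Its neighbour Neat1, 22 kb away, was not (-0.06, edgeR adjusted p = 0.657). Malat1 was lowest among males in Cyp2b-null male 1, which also had the lowest male ribosomal RNA share (0.0238%) and the highest male nerve marker mean (3.89 log2 CPM). The part of RNA quality or nuclear RNA in the span pattern was not tested.

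Read within each genotype, 324 genes (2.42%) were called in hCYP2B6-Tg mice and 335 (2.50%) in Cyp2b-null mice. These sets share no mouse: 160 genes were in both, 49.4% and 47.8% of each, all with the same sign. Of the 324, 321 had the same sign in Cyp2b-null mice, and of the 335, 330 in hCYP2B6-Tg mice, against 64.7% of all genes. The sex difference itself did not pass as different between genotypes for any gene (0%, edgeR), with 531 genes at an unadjusted p under 0.05, and DESeq2 called 0 as well.

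In the mice at 1 mg/kg/day, 1207 of 13439 genes (8.98%) differed between the sexes, 650 higher in males and 557 in females. Of the 863 genes higher in untreated males, 859 were tested at that dose, 830 had the same sign and 372 were called, which is 43.1% of the untreated and 57.2% of the 1 mg/kg/day list. Of the 502 higher in untreated females, 467 of 497 tested had the same sign and 204 were called (40.6% and 36.6%). No gene was called in opposite directions, and 68.9% of all genes tested at both doses had the same sign. At 10 mg/kg/day 85 of 14456 genes (0.588%) were called, 76 higher in males and 9 in females, and 59 of these were also called in untreated mice with the same sign. Amd1 (1.90), Actr3b (3.33), Slc30a2 (1.97), Serpinb6a (1.11), Ak4 (-1.53) and Obsl1 (-0.85) were among them, whereas Odc1 (1.54, edgeR adjusted p = 0.0755) and Smox (1.00, 0.333) were not. Whether the sex difference changed with dose was not tested.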

How the data were processed

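RNA of gastrocnemius was sequenced after selection of messenger RNA, per the labels, and raw read counts per gene of 48 mice are in the table the authors deposited. The submitters' processing notes name HISAT2 and GRCm39; how reads were counted (program, strand, annotation) is not given in the sources used here. Coordinates are GRCm38: 98.3% of gene starts and ends equal GENCODE vM21. No column lacked a sample. Counts of the 17 untreated mice were filtered with filterByExpr, scaled by TMM and tested with edgeR 4.0.16 (R 4.3.3; quasi-likelihood, genotype plus sex, 14 residual degrees of freedom; the coefficient of biological variation was 20.2%). P-values were adjusted by Benjamini-Hochberg over 13893 genes (threshold 0.05), and autosomal genes were read out. CPM use TMM-scaled library sizes unless said otherwise, and fold changes are log2 with standard errors. Within-genotype and genotype-difference contrasts used a 4-group fit; each dose was fitted separately. The labels number the mice in a group but name no shared litter or source, so p-values measure the spread between these mice. Replicates were not copies (lowest chi-square per degree of freedom 7.96). In simulated counts with 200 changed genes among 13893, 33 of 67 at 1.5-fold, 49 of 67 at 2-fold and 63 of 66 at 4-fold were recovered, with 2 false calls. Alternatives included DESeq2 1.42.0 and limma 3.58.1.

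Named genes are the 15 largest differences each way that passed, shared their sign in both genotypes and averaged at least 1 on the log2 CPM scale, up to 4 called members by smallest p from each of 26 lists, and 29 muscle, hormone and fuel genes in any case; unnamed predicted genes and pseudogenes were counted only. Others were chosen after their values were seen, as stated. Results for a few genes are not reported here. The comparison, members and lists were chosen with earlier results of these data known.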

Additional observations from a re-analysis of the deposited data

Results flagged for a closer look

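Values of the genes read were searched for a single mouse far from the others of its group of 4 or 5, a gap that chance gives in about 1 of 20 groups. Of 459 gene and group pairs, 39 met it; each is given with the range of the other mice of that group, in CPM, and none was examined further. Mouse hCYP2B6-Tg female 4 was apart from its group for Adipoq (21.68, others 3.35 to 6.37), Cyp4f39 (6.291, others 2.77 to 3.315), Fasn (107.8, others 9.737 to 15.16), Npnt (1.983, others 3.667 to 3.947), Scd1 (198.2, others 24.62 to 37.46) and Sox10 (5.813, others 2.804 to 3.047). For Cyp2b-null female 1 the genes were Adipoq (15.15, others 0.5216 to 2.866), Fasn (34.18, others 7.042 to 9.593), Hsd17b4 (79.24, others 72.44 to 73.13), Ncmap (5.567, others 0.5216 to 1.284) and Scd1 (140.9, others 12.13 to 16.82). Mouse hCYP2B6-Tg male 3 lay away from the others for Bmpr1a (112.2, others 91.35 to 97.16) and Mib1 (178.2, others 128.7 to 132.4). Mouse hCYP2B6-Tg male 5 was apart from its group for C7 (24.69, others 0.4933 to 5.75), Esr1 (30.02, others 36.28 to 37.86), Scd1 (199.3, others 9.701 to 56.83), Sox10 (1.872, others 0.5989 to 0.7938) and Zfp385a (12.53, others 2.877 to 5.457). For Cyp2b-null female 2 the genes were Cacna2d4 (7.368, others 0.4532 to 1.184), Cyp4f39 (32.99, others 1.165 to 3.928) and Igf2 (0.9128, others 1.682 to 1.813). Mouse Cyp2b-null male 3 lay away from the others for H19 (506.2, others up to 218.3) and Nmrk2 (47.43, others 111.4 to 119.02). Mouse hCYP2B6-Tg female 2 was apart from its group for Irx3 (4.206, others 2.188 to 2.468). For hCYP2B6-Tg female 1 the genes were Meg3 (68.83, others 40.12 to 45), Myl4 (29.27, others 9.425 to 9.71), Pla2g5 (8.533, others 5.885 to 6.154) and Plod2 (20.31, others 6.36 to 7.322). Mouse Cyp2b-null female 3 lay away from the others for Meg3 (55.82, others 25.95 to 27.9), Ncor1 (115, others 120 to 121.1) and Rian (50.68, others 19.42 to 23.47). Mouse Cyp2b-null female 4 was apart from its group for Musk (11.96, others 3.782 to 5.05), Myh2 (3095, others 700.7 to 921.9) and Myh7 (611.2, others 2.804 to 65.34). For Cyp2b-null male 1 the genes were Ncmap (2.552, others 0.2778 to 0.5901) and Pnpla3 (8.021, others 3.565 to 4.13). Mouse hCYP2B6-Tg male 2 lay away from the others for Neat1 (1050, others 1315 to 1403). Mouse hCYP2B6-Tg male 1 was apart from its group for Odf3l2 (30.14, others 8.573 to 12.96). For hCYP2B6-Tg male 4 the gene was Per2 (7.07, others 13.31 to 15.62).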

How the results depend on the processing

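The count of called genes was 1365, 863 higher in males and 502 higher in females. With limma voom and quality weights it was 2425, 1371 and 1054. It fell to 395, 269 and 126 with the ribosomal RNA share as a covariate, to 494, 326 and 168 with the nerve markers as a covariate, and to 519, 349 and 170 without the 3 high-numbered Cyp2b-null male libraries; these 3 alternatives were chosen after seeing the data. Under 9 other settings the counts stayed within 1.5 times, from 1113 to 1723. Leaving out each mouse gave 1001 to 1638 genes, 651 to 1065 higher in males and 350 to 598 in females. With the mouse number as a replicate block 1195 genes were called, 732 and 463. The numbers name no shared origin: same-numbered mice correlated at -0.273 to 0.314 (median -0.0774), and 1 of 16 libraries correlated best with its own number. That block ended the calls of Angptl7, Cyp4f39, Plod2, Actc1, Igf1, Hlf and Sox17 among the genes named. DESeq2 called 689 genes in hCYP2B6-Tg mice (324 with edgeR), 615 in Cyp2b-null mice (335 with edgeR, 186 when fitted alone) and 241 at 10 mg/kg/day (85 with edgeR); the cause was not tested. Of 93 named genes called, 35 lost the call with the ribosomal RNA share as a covariate, 34 with the nerve markers and 26 without the 3 libraries; 6 did with unscaled library totals (Bmpr1a, Smad4, Ncor1, Hlf, Per2 and Ncmap). No named gene that was called changed sign under any setting run. Of the 15 largest differences toward males, 14 kept their call under every setting in which they were tested, Angptl7 being the exception; of the 15 toward females, Rian, Ak4, Nr4a3, Stc2 and Zfp503 did. Single mice also decided the calls of Esam (Cyp2b-null males 2 and 4; adjusted p up to 0.0573) and Sox17 (hCYP2B6-Tg females 3 and 4 and male 2, Cyp2b-null female 2 and males 2 and 4; up to 0.0656). Depth limits genes near 0 in 1 sex, such as Slc15a5.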

Other observations

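On the sex chromosomes, which are outside the comparison above, the same fit called 55 of 445 X-linked genes (12.4%), 22 higher in males and 33 in females, and 5 of 6 Y-linked genes. Scd1, which makes monounsaturated fatty acids and was not called, was higher in males once the mean of the adipocyte markers was a covariate (log2 difference 1.00, edgeR adjusted p = 0.000488); Irs2 was called with the same covariate (0.26, adjusted p = 0.0183).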
